A study of Rattus norvegicus with 6 samples.

Results

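The scavenger receptor genes Olr1, Msr1, Marco, Scarb1, Scarb2 and Stab1 were followed in the thoracic aorta of hypertensive and normotensive rats. Their probe sets, groups of short probes that report the level of one transcript, were taken from the platform annotation wherever it named 1 of these genes alone. This gave 6 probe sets, 1 for each of the 6 genes, of 28879 on the array and 18166 named genes. Olr1 headed the choice because its level was already known to lie higher in the hypertensive strain, and the other receptors were taken with it by family. The strain contrast of these probe sets is therefore given as a description.

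The samples were thoracic aortae of untreated 24-week-old rats, cleaned of fat and connective tissue. The spontaneously hypertensive rat (SHR) is inbred and becomes hypertensive without intervention. The Wistar-Kyoto rat (WKY) is the related normotensive strain used as its control, and the 2 strains differ at many loci besides those that bear on pressure. Each strain had 3 Affymetrix Rat Gene 2.0 ST arrays, 6 in all. Whether the arrays came from separate animals is not said in the labels. Errors and p-values therefore describe the spread among these 6 samples and may reflect technical variation alone.

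Scavenger receptors are membrane proteins that bind modified lipoproteins, microbial surfaces and cell debris and carry them into the cell. Uptake of oxidised low-density lipoprotein (LDL) by such receptors is the step by which macrophages of the arterial wall become foam cells. Olr1 encodes LOX-1, a C-type lectin receptor of oxidised LDL found on endothelium, smooth muscle and macrophages. Msr1 and Marco encode collagen-containing receptors of macrophages. Scarb1 is the receptor of high-density lipoprotein, Scarb2 a lysosomal membrane protein that carries glucocerebrosidase, and Stab1 a large endocytic receptor of sinusoidal and lymphatic endothelium and of some macrophages.

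The upstream sequence of Olr1 is shown because this gene carries the strain difference described next. It is the RefSeq promoter window of assembly GRCr8, chr4:164634498-164634797 on the minus strand, 250 bases before to 50 after the annotated start. The reference comes from a Brown Norway rat. The corresponding SHR and WKY sequences were not analysed here.
Olr1 promoter: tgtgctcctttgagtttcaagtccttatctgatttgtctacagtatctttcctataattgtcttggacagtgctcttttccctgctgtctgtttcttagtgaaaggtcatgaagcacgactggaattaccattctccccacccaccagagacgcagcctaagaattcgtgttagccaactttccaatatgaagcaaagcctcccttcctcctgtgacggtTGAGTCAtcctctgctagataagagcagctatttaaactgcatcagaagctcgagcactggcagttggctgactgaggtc
The capitals mark the only match to the AP-1 motif TGAGTCA, searched on both strands, which begins at position -30 relative to the start. Of 33469 promoter windows of this length, 4.63% hold that motif. The octamer ATGCAAAT (1.78% of windows), the degenerate NF-kB consensus (7.51%), the motif TATAAA (14.2%) and the cyclic AMP motif TGACGTCA (1.83%) were searched in the same way and had no match in the window. The motifs do not overlap one another there, since 1 alone matched. Among the 4 of these receptor genes with a promoter window in the table, Olr1 alone held TGAGTCA and Marco alone held TATAAA. A match of letters is a description of the window and not evidence of binding.

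The Olr1 probe set (17795409) lay far apart between the strains. On the SHR arrays, replicates 1 to 3, it read 5.20, 4.80 and 4.94 on the log2 scale, and on the WKY arrays, in the same order, 1.72, 1.66 and 1.49. All SHR arrays lay above all WKY arrays, with a gap of 3.08 log2 units between the lowest SHR and the highest WKY array. By contrast the levels ranged over 0.41 units within SHR and 0.23 within WKY. The means were 4.98 ± 0.21 (SD, n = 3) in SHR and 1.63 ± 0.12 in WKY, a difference of 3.36 ± 0.16 (SE of the limma fit).

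The 6 array medians ran from 2.29 to 2.52. On the SHR arrays Olr1 was above them and on the WKY arrays it was below, and the files hold no call of detection. The WKY level is thus not shown to exceed background, and the difference is one between measured log2 levels and not a fold in RNA. The probe set has no copy with identical values on the array. Olr1 rests on this probe set alone, and whether a sequence difference between the strains lies under its probes was not tested.

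Leaving out each array in turn moved the Olr1 difference only between 3.24 and 3.45. The lowest value came without SHR replicate 1, the array with the highest Olr1 level. The highest came without SHR replicate 2.

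**Figure D1:**
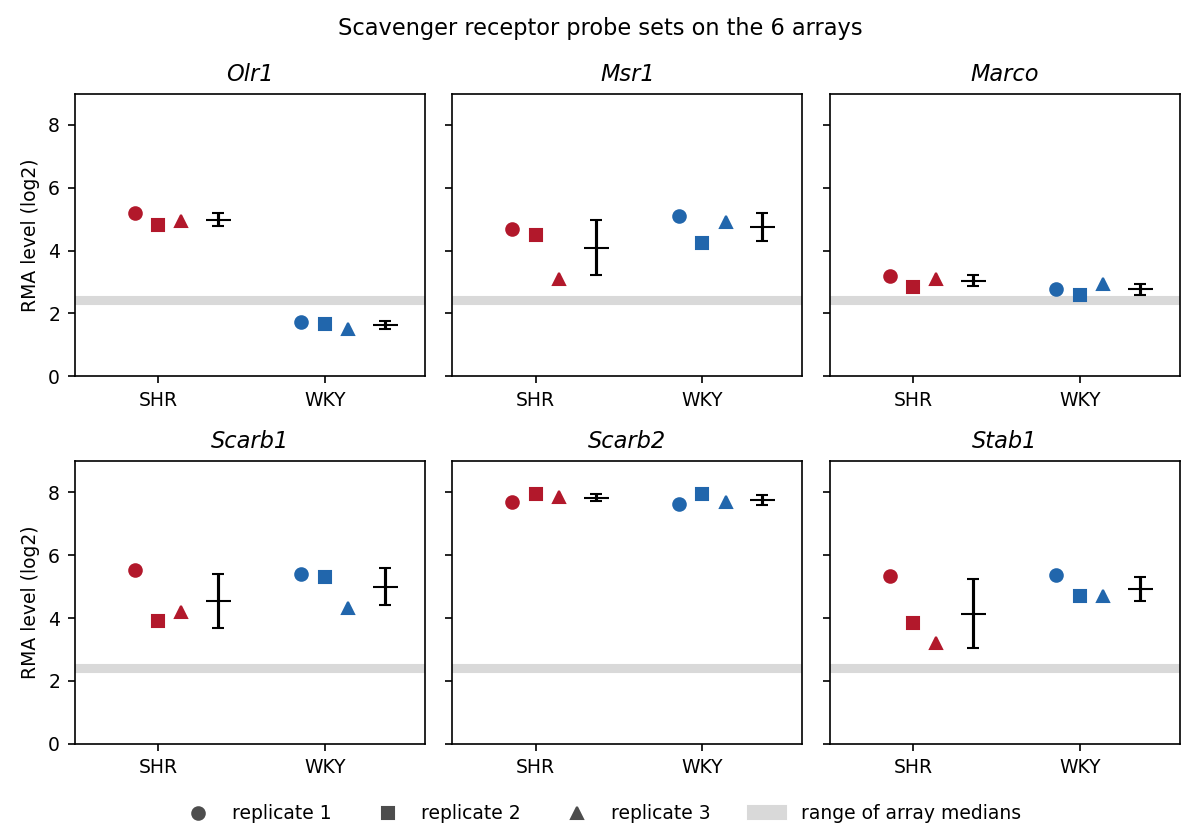
RMA level (log2) of each receptor's probe set in SHR (red) and WKY (blue); each symbol is 1 array, black bars are the mean and SD of 3 arrays, and the grey band is the range of the 6 array medians (2.29 to 2.52). Olr1 is the only receptor of the 6 whose strains do not overlap, with SHR arrays from 4.80 to 5.20 and WKY arrays from 1.49 to 1.72.

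Of the 6 probe sets, all passed the filter on dim probe sets (a mean log2 level at or above 1.17), and 1, Olr1, had a limma adjusted p under 0.05. Over the 21659 probe sets tested, 0.0693% did. The strains did not overlap for 1 of the 6 receptors, again Olr1, against 12.1% of all tested probe sets. Since Olr1 was chosen on this contrast, neither count is evidence about the family. The median difference over the 6 was -0.19, and over all tested probe sets -0.01.

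The collagen-containing receptors did not follow Olr1. Msr1, which takes up acetylated and oxidised LDL in macrophages, lay at 4.68, 4.51 and 3.09 on the SHR arrays and at 5.10, 4.25 and 4.90 on the WKY arrays, listed by replicate number here and below. The strains overlapped, and SHR replicate 3 was the lowest of the 6 arrays. The means were 4.09 ± 0.87 (SD, n = 3) and 4.75 ± 0.45, a difference of -0.66 with a 95% interval from -1.68 to 0.36 (limma adjusted p = 0.923). Without SHR replicate 3 the difference was -0.15.

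Marco, a receptor of macrophages for bacteria and particles, lay at 3.19, 2.84 and 3.08 on the SHR arrays and at 2.77, 2.59 and 2.95 on the WKY arrays. The strains overlapped narrowly, by 0.11 log2 units. The difference was 0.27 with a 95% interval from -0.13 to 0.66 (limma adjusted p = 0.923). The 6 levels spanned 0.60 units and lay little above the array medians, so presence of the transcript is not shown.

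The class B receptors differed from each other in how much they varied. Scarb1, which takes up cholesteryl esters from high-density lipoprotein, lay at 5.52, 3.90 and 4.20 on the SHR arrays and at 5.40, 5.30 and 4.31 on the WKY arrays. Both strains held high and low arrays: SHR replicate 1 and WKY replicates 1 and 2 were high, the others about 1 log2 unit or more lower. The SD within a strain was 0.86 in SHR and 0.60 in WKY (n = 3 each), and the difference was -0.46 with a 95% interval from -1.55 to 0.62 (limma adjusted p = 0.923). It was -0.15 without SHR replicate 2 and -0.95 without SHR replicate 1.

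Scarb2, the lysosomal member, was the steadiest of the 6. Its levels were 7.71, 7.95 and 7.85 on the SHR arrays and 7.63, 7.93 and 7.70 on the WKY arrays. They spanned 0.32 log2 units in all and the strains overlapped. The difference was 0.08 with a 95% interval from -0.28 to 0.44 (limma adjusted p = 0.954).

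Stab1, the stabilin, had the widest spread after Olr1. Its levels were 5.35, 3.85 and 3.20 on the SHR arrays and 5.38, 4.70 and 4.71 on the WKY arrays. Replicate 1 was the highest array in each strain, and SHR replicates 2 and 3 were the lowest of the 6. The means were 4.13 ± 1.10 (SD, n = 3) and 4.93 ± 0.39, a difference of -0.80 with a 95% interval from -1.99 to 0.40 (limma adjusted p = 0.923). The difference ranged from -1.40 without SHR replicate 1 to -0.33 without SHR replicate 3. None of the 5 receptors besides Olr1 passed in limma, and 0 had an unadjusted p under 0.05, where 5.55% of all tested probe sets did. These intervals are wide for Msr1, Scarb1 and Stab1, and differences of 1 log2 unit lie inside them.

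**Figure D2:**
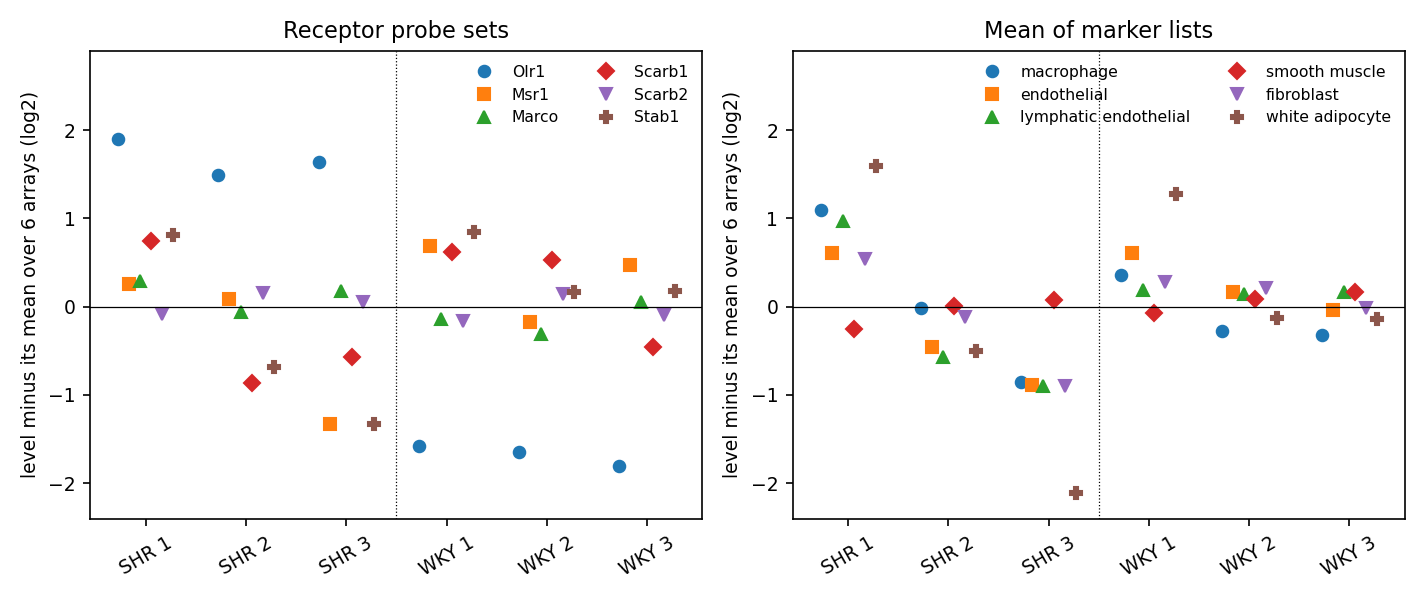
Left, log2 level of each receptor on each array minus its own mean over the 6 arrays; right, the same for the mean of 6 marker lists. Olr1 splits by strain, whereas Stab1 and the white adipocyte, macrophage and endothelial lists are high on replicate 1 of both strains and low on SHR replicate 3.

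The cell content of the samples was described with marker genes. Smooth muscle markers (6 of 8 measured) had a mean log2 level of 9.49 to 9.83 on the SHR arrays and 9.67 to 9.91 on the WKY arrays. Macrophage markers (14 of 15 measured) averaged 5.71, 4.60 and 3.77 on the SHR arrays and 4.98, 4.34 and 4.30 on the WKY arrays. Of these 14 markers 0 passed, 0 had an unadjusted p under 0.05 in limma and 0 were separated by strain. Over all tested probe sets the shares were 0.0693%, 5.55% and 12.1%, so counts of 0 among 14 say little. Olr1 was 4.94 on SHR replicate 3, where the macrophage mean was lowest, and 1.72 on WKY replicate 1, where that mean was 4.98. Within WKY, Olr1 and the macrophage mean both fell from replicate 1 to replicate 3, and within SHR both were highest on replicate 1. The part of macrophage content in the Olr1 level was not tested. In a sample of whole tissue, fewer cells of a type and less RNA per cell cannot be told apart.

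Endothelial markers (10 of 12 measured) had a mean of 5.78, 4.72 and 4.29 on the SHR arrays and 5.77, 5.34 and 5.13 on the WKY arrays. With 8 of the 10 below 0, against 52.0% of all tested probe sets, their median difference was -0.58. In limma 0 passed and 2 were lower at an unadjusted p under 0.05, against 2.54% of all tested probe sets. The lean below 0 was not particular to endothelium. White adipocyte markers had 7 of 7 below 0 (median -0.74), smooth muscle and fibroblast 5 of 6 each and lymphatic endothelial 4 of 5. Striated muscle had 5 of 5, brown adipocyte and platelet 3 of 3 each and granulocyte and mast cell 2 of 3. Macrophage (6 of 14), lymphocyte (1 of 5) and sympathetic neuron markers (0 of 3) did not lean so. Lymphatic endothelial markers (5 of 5 measured) lay at 4.94, 3.39 and 3.06 in SHR and at 4.15, 4.11 and 4.13 in WKY. White adipocyte markers (7 of 7 measured) lay at 7.43, 5.33 and 3.72 in SHR and at 7.11, 5.70 and 5.69 in WKY. The smooth muscle, lymphatic and white adipocyte lists held no marker that passed in limma. They held 0 at an unadjusted p under 0.05, against 5.55% of all tested probe sets. Each of the endothelial, lymphatic and white adipocyte lists ranked the SHR arrays in the order of Stab1 and of Msr1, with replicate 1 highest and replicate 3 lowest. The macrophage, fibroblast, brown adipocyte, platelet and sympathetic neuron lists did the same, so the order is not particular to 1 cell type. The smooth muscle list ran the other way, at 9.49, 9.76 and 9.83 on SHR replicates 1 to 3. The lymphocyte, granulocyte and mast cell, and striated muscle lists followed neither order. The part of cell content in the levels of Msr1, Scarb1 and Stab1 was not tested.

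The remaining marker lists were low or uneven. Lymphocyte markers (6 of 7 measured) had means of 1.36 to 1.66 and granulocyte and mast cell markers (5 of 5) of 1.14 to 1.38 on all 6 arrays, below every array median. Platelet markers (3 of 4) lay between 2.34 and 2.97. Sympathetic neuron markers (3 of 4) stood at 6.15 on SHR replicate 1 and at 1.66 to 2.14 on the others. Fibroblast markers (6 of 6) lay between 7.42 and 8.86, brown adipocyte markers (4 of 5) between 3.09 and 6.43 and striated muscle markers (5 of 5) between 2.45 and 3.31. In these 7 lists no marker passed in limma, and 3 had an unadjusted p under 0.05, all lower in SHR, against 2.54% of all tested probe sets. There was 1 each in the fibroblast (6 tested), granulocyte and mast cell (3 tested) and striated muscle (5 tested) lists. WKY replicate 3 stood apart in scale: the SD of its values was 2.12, where the remaining arrays had 2.22 to 2.27.

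The other scavenger receptors on the array, 17 of 19 listed, included none that passed in limma. At an unadjusted p under 0.05, 2 were higher and 0 lower, where 3.01% of all tested probe sets were higher and 2.54% lower. The median difference was -0.01 with 8 above 0 and 9 below, where 48.0% of all tested probe sets were above 0. Cxcl16, a membrane-bound chemokine that also binds oxidised LDL, came nearest. It lay at 6.98, 6.91 and 6.89 on the SHR arrays and at 6.05, 5.78 and 5.48 on the WKY arrays, so the strains did not overlap. The difference was 1.15 ± 0.18 (SE; limma adjusted p = 0.136), and with array weights, which give WKY replicate 3 a weight of 0.22, it was 1.03 and passed (limma adjusted p = 0.0338).

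Cd44, the hyaluronan receptor, lay at 3.80, 3.61 and 3.71 in SHR and at 3.29, 3.25 and 3.08 in WKY. The difference was 0.50 ± 0.14 (limma adjusted p = 0.634) with no overlap. Scarf1, a receptor of endothelial cells for acetylated LDL, lay at 3.69, 2.82 and 3.47 in SHR and at 3.96, 3.73 and 3.71 in WKY, a difference of -0.47 ± 0.24 (limma adjusted p = 0.923). Without SHR replicate 2 the Scarf1 difference was -0.22. In this list 3 receptors were separated with SHR higher and 1 with SHR lower, against 6.48% and 5.61% of all tested probe sets.

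**Figure D3:**
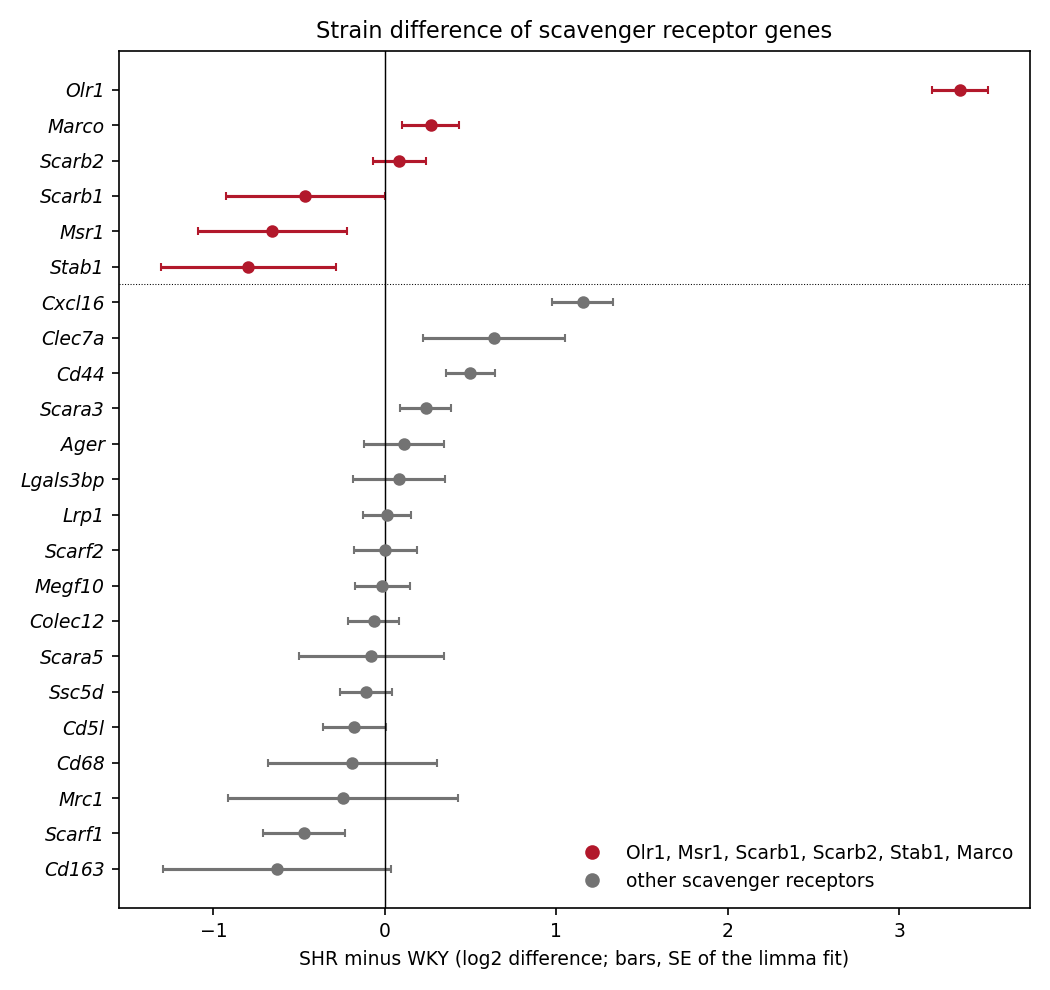
Log2 difference, SHR minus WKY, of the 6 receptors (red) and of 17 other scavenger receptors (grey); bars are the SE of the limma fit. Olr1 stands at 3.36, the next at 1.15 (Cxcl16), and the lowest is Stab1 at -0.80.

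Genes that handle lipoproteins and cholesterol, 20 of 24 listed, held none that passed in limma. At an unadjusted p under 0.05 there was 1, higher in SHR, against 3.01% of all tested probe sets in that direction. Their median difference was 0.09, with 11 above 0 and 9 below, where 48.0% of all tested probe sets were above 0. That 1 gene was Lrp8, a receptor of the LDL receptor family, at 3.14, 3.16 and 2.65 in SHR and 2.19, 2.33 and 2.29 in WKY. The difference was 0.71 ± 0.18 (SE; limma adjusted p = 0.519). Vldlr, the receptor of very-low-density lipoprotein, differed by 0.37 and Lipa, the lysosomal lipase, by 0.36. Both overlapped between strains, and without WKY replicate 3 the differences were 0.14 and 0.17.

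Among genes that transmit or answer the signal of LOX-1, 28 of 30 listed were measured. None passed in limma, and 4 were higher in SHR and 0 lower at an unadjusted p under 0.05, against 3.01% and 2.54% of all tested probe sets. The strains did not overlap for 6 with SHR higher and 1 with SHR lower, against 6.48% and 5.61% of all tested probe sets. The median difference was 0.09, with 17 above 0 and 11 below, where 48.0% of all tested probe sets were above 0. Ccl2, the chemokine that draws monocytes, lay at 5.75, 4.84 and 4.75 in SHR and at 4.11, 3.86 and 3.83 in WKY. The difference was 1.18 ± 0.27 (limma adjusted p = 0.463).

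Tgfb1, the growth factor, lay at 6.65, 6.99 and 7.10 in SHR and at 6.26, 6.18 and 6.07 in WKY, a difference of 0.74 ± 0.17 (limma adjusted p = 0.436). Icam1, a leukocyte adhesion molecule, lay at 5.86, 5.69 and 5.54 in SHR and at 5.11, 5.15 and 5.17 in WKY, a difference of 0.55 ± 0.15 (limma adjusted p = 0.550). For each of these 3 genes all SHR arrays were above all WKY arrays, and none of the differences passed under any alternative setting that was run.

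Regulators of Olr1 and the proteases that shed it, 9 of 11 listed, held none that passed in limma. Their median difference was 0.07, and 0 had an unadjusted p under 0.05, against 5.55% of all tested probe sets. Klf2, a transcription factor induced by laminar flow, lay at 5.71, 5.63 and 6.19 in SHR and at 6.09, 6.27 and 6.52 in WKY, a difference of -0.45 ± 0.20 (limma adjusted p = 0.921) with overlap. Nfe2l2, the regulator of antioxidant genes, differed by 0.34 and Hif1a, the oxygen-sensitive factor, by 0.39. On both, WKY replicate 3 was the lowest array, and without it the differences were 0.08 and 0.05. Lysosomal genes that act with Scarb2 (11 of 13) likewise held none that passed in limma. At an unadjusted p under 0.05 there was 1, against 5.55% of all tested probe sets. Of the 11, 9 lay above 0, against 48.0% of all tested probe sets, with a median of 0.15. The mean level of this list was 6.65 on WKY replicate 3 and 7.03 to 7.11 on the remaining arrays. Igf2r and M6pr, the receptors of mannose-6-phosphate tags, differed by 0.58 (limma adjusted p = 0.761) and 0.41, and Lamp1, a lysosomal membrane protein, by 0.15. Without WKY replicate 3 the difference of M6pr was 0.10.

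Olr1 lies in a cluster of C-type lectin receptor genes, and its measured neighbours were examined in the gene order of assembly GRCr8. Of the 8 nearest tested genes on each side, 16 in all, none passed in limma. At an unadjusted p under 0.05 there was 1, against 5.55% of all tested probe sets. The differences of the 16 ran from -0.51 (Clec1a) to 0.64 (Clec7a), with a median of 0.07. Clec9a, Clec1b, Cd69, Clec2e, Tmem52b, Klrk1 and Ly49i7 lay below the array median on all 6 arrays. Presence of these transcripts is not shown, so their small differences say little. Clec2gl1, the next tested gene beyond Clec2e, lies just outside this window and did pass, with a difference of 2.46 (limma adjusted p = 0.0297). It has 24 genes between it and Olr1, whereas Ly49i7, inside the window, has more than 39. The adjacent measured genes were Clec7a, a receptor of fungal glucans, and Tmem52b, which differed by -0.17. Clec7a, also counted with the scavenger receptors above, overlapped between the strains, at 4.69, 3.85 and 3.06 in SHR and 3.37, 3.57 and 2.75 in WKY.

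The strains were separated for 3 of these neighbours, all with SHR higher, against 6.48% of all tested probe sets in that direction. Gabarapl1, an autophagy gene, differed by 0.37 ± 0.17 (SE; limma adjusted p = 0.921). Ly49si1l1 differed by 0.48 ± 0.16 (limma adjusted p = 0.795) and Ly49i7 by 0.26 ± 0.14 (limma adjusted p = 0.923). Ly49i7 lay below the array median on every array and Ly49si1l1 was above it on only 2. Presence of either transcript is thus not shown. The Ly49 genes belong to a family of similar copies, and whether their probe sets read more than 1 copy was not tested.

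**Figure D4:**
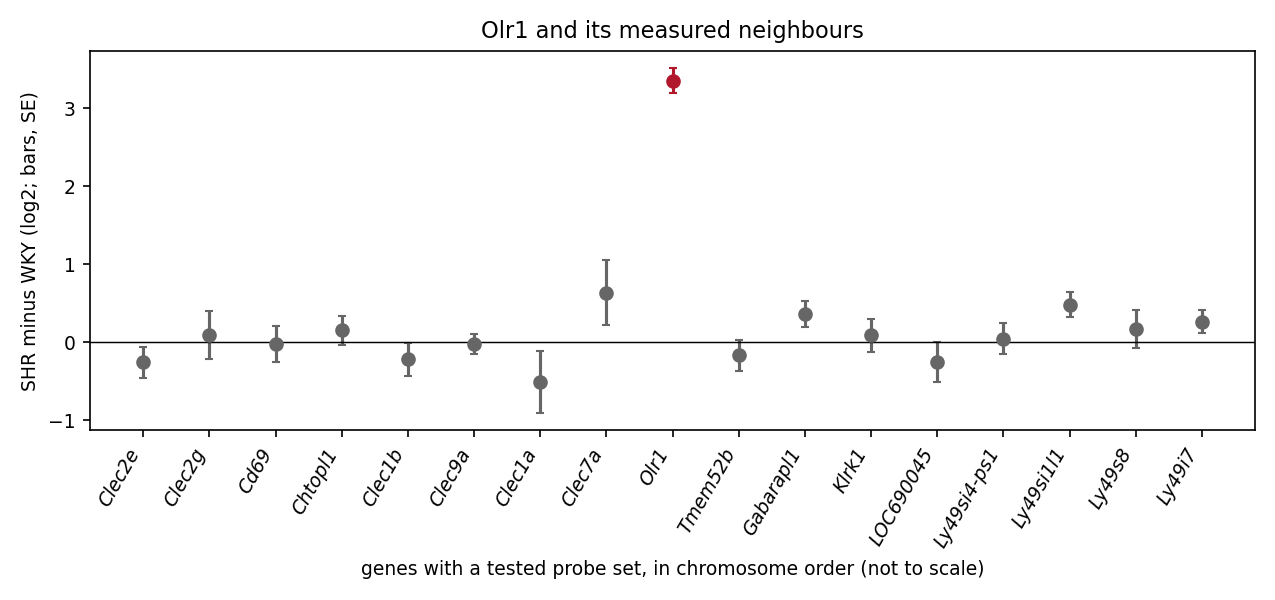
Log2 difference, SHR minus WKY, of Olr1 (red) and of the 8 nearest genes with a tested probe set on each side (grey), in chromosome order and not to scale; bars are the SE of the limma fit. Olr1 stands at 3.36 and the other genes shown between -0.51 and 0.64. Some of these other genes lay below the array median on every array. Clec2gl1, the next tested gene beyond Clec2e, is not shown and differed by 2.46.

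The genes whose profile was most like that of Olr1 were found by the root mean square difference between profiles over the 6 arrays, each centred on its own mean, among 15552 named probe sets. A small value means that a gene lay as far above and below its mean as Olr1 on the same arrays. The nearest were Trpc4, a calcium-permeable channel (0.41 log2 units), the probe set 17664759 of the carbonyl reductase Cbr1 (0.43), Clec2gl1, a C-type lectin gene (0.56), Il1rl2, an interleukin receptor (0.58), and Thbs4, a thrombospondin (0.68). This measure depends largely on the size of the strain difference, which was 3.36 for Olr1. For these 5 genes, in the order named, that difference was 3.04, 3.47, 2.46, 4.43 and 2.01. On SHR replicate 1, the highest array of Olr1, Thbs4 was also at its highest, at 5.89, while Trpc4, Cbr1, Clec2gl1 and Il1rl2 were at their lowest among the SHR arrays.

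Clec2gl1 lies in the same lectin cluster, with 24 genes of the RefSeq table between it and Olr1, of which 8 had a tested probe set. It lay at 3.80, 4.33 and 4.56 on the SHR arrays and at 1.96, 1.86 and 1.50 on the WKY arrays. Between it and Olr1 lie the measured genes from Clec2e to Clec7a, whose differences were between -0.51 and 0.64. Of these, Clec2e, Cd69, Clec1b and Clec9a lay below the array median on every array. It belongs to a family of similar genes, and whether its probe set reads more than 1 of them was not tested.

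For the receptors with a range of 1 log2 unit or more, the most similar profiles were closer. Stab1 was nearest to Tie1, an endothelial receptor kinase, at a root mean square difference of 0.09, and to Fmo1, a flavin monooxygenase, at 0.12. Tie1 lay at 5.56, 4.02 and 3.34 on the SHR arrays and at 5.48, 4.96 and 4.70 on the WKY arrays. Scarb1 was nearest to Ly6e, a membrane-anchored protein (0.11), and to Vtn, the adhesive protein vitronectin (0.12). Msr1 was nearest to Fam107a (0.15) and Epb41l4a (0.17). With 6 arrays and 15552 profiles compared, close matches of this kind are a description of these arrays.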

How the data were processed

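Per the submitters' processing notes, the authors made the deposited log2 levels with RMA in Affymetrix Expression Console 1.2.1. RMA includes background correction, quantile normalization and a summary of the probes of each probe set. The genome build is not stated in those notes. Names follow the platform annotation, updated by Entrez identifier through RefSeq (GRCr8), which matched 18394 of 18511 probe sets with 1 symbol. A probe set named Cd36l1, an older symbol of Scarb1, carries the identifier of another gene and was not counted.

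Probe sets at or above the 25th percentile of mean level (1.17) were fitted with limma 3.58.1 (R 4.3.3; lmFit, eBayes) by strain, two-sided, with Benjamini-Hochberg adjustment over all 21659. The fit was also run on data simulated from its own model, with independent normal errors and no difference in spread between arrays. That run cannot show how the fit does on arrays that differ in spread, as these do. A gene with several tested probe sets was represented by the brightest. The receptors and all lists were chosen with earlier results of these data known. From each list that is not of markers, the 3 genes with the smallest unadjusted p are named, as are the same 3 among the neighbours of Olr1 and the genes most like it in profile. Clec7a, Clec1a, Clec2e, Tmem52b, Clec9a, Clec1b, Cd69 and Klrk1 were named after their values were seen. The alternatives were other filters, scalings, priors and weights, a replicate block, another threshold, and each array left out.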

Additional observations from a re-analysis of the deposited data

How the results depend on the processing

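The number of probe sets called over the whole table, 15 of 21659, was 65 with array weights, 30 at an adjusted p under 0.10, 3 with the replicate number as a block and 2 to 5 with 1 array left out. The 3-array groups limit the precision, and fits without 1 array have fewer samples. Among the 17 other scavenger receptors the count went from 0 to 1 with array weights, for Cxcl16 (1.03). The causes of the moves under array weights and under the block were not tested. Olr1 was called under all 14 alternatives, and its difference lay between 3.23 and 3.45. No other receptor of the 6 was called under any. The filters, the prior and the block cannot move the Olr1 difference, and Olr1 was chosen on this contrast. Its calls are therefore a description. Whether replicate numbers pair the arrays was not settled. Deviations from the strain means correlated at 0.35, -0.08 and 0.23 for numbers 1 to 3. SHR replicates 1 and 3 correlated best with the WKY array of the same number, and SHR replicate 2 with WKY replicate 3 (0.17). The 3 deviations of a strain sum to 0, so this check cannot decide the question. The block changed no call among the receptors. Of the 5 genes most like Olr1, 4 were among the 5 nearest after a further quantile normalization and all 5 with no filter.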
